A study of Mus musculus with 21 samples.

Results

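Cardiac macrophages of naive C57BL/6 mice that carry the chemokine receptor Ccr2 at the surface (naive R3, Ccr2-positive and MHC-II-high) were compared with those sorted as lacking it but also high in MHC class II (naive R2, Ccr2-negative and MHC-II-high). The comparison takes 6 of the 21 RNA sequencing libraries of the series, 3 of each population, assigned by their sort labels. Earlier results of these data were known when the comparison and the gene lists were chosen. Per the series' design, the naive hearts came from 3 independent pools of mice, and each pool was divided into R1, R2 and R3, so libraries with the same replicate number come from the same pool. The labels do not say how many mice made a pool. The other groups, also of 3 libraries, are naive R1 (Ccr2-negative, MHC-II-low), the same 3 populations from C57BL/6 mice given CAWS, a water-soluble extract of Candida albicans that brings on a vasculitis resembling Kawasaki disease, and Ccr2-positive monocytes from naive spleens. No treatment was given to the mice behind R2 and R3, and no transgene or deletion is named for any group.

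As background, macrophages of the adult heart come from more than 1 source. Ccr2-negative cells are long-lived residents, many of them seeded before birth, that renew themselves locally and clear debris. Ccr2-positive cells descend from circulating monocytes, which leave bone marrow and enter tissue through Ccr2, the receptor for the chemokines Ccl2, Ccl7 and Ccl12. MHC class II molecules present peptides to CD4 T cells, and in the heart they mark both an antigen-presenting subset of residents and the monocyte-derived cells.

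The RNA of the sort markers matched the gates. Ccr2 measured 29.0, 20.2 and 38.7 CPM (a gene's counts relative to the library total after TMM adjustment) in the 3 R2 libraries and 2600, 2530 and 2040 CPM in the 3 R3 libraries. H2-Ab1, a chain of MHC class II, measured 10600, 11600 and 9630 CPM in R2 and 12100, 13800 and 11000 CPM in R3. Ccr2 RNA thus separated the gates and H2-Ab1 RNA overlapped, and since both chose the cells neither is a finding. The macrophage marker Adgre1 (F4/80) was present in all 6 libraries, at 2530, 2390 and 2210 CPM in R2 and 1710, 1660 and 1740 CPM in R3, as was Csf1r, the receptor that keeps macrophages alive, at 7920 to 8510 CPM in R2 and 5600 to 6270 CPM in R3. Both were lower in R3, by 0.48 ± 0.09 on the log2 scale (SE, adjusted p = 0.00132) for Adgre1 and 0.48 ± 0.09 (adjusted p = 0.00121) for Csf1r. Total counts were 18013289 to 23006155 per R2 library and 15116329 to 17471170 per R3 library. Along the first principal component of the 9 naive heart libraries (42.9% of variance), R3 replicate 3 lay at 37.5, closer to R2 (-3.13 to -11.2) than the other R3 libraries (61.2 and 62.8). R3 replicate 2 stood apart in connective tissue genes. The cells were measured in bulk, where fewer cells of a type and less RNA per cell cannot be told apart.

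Of 13275 genes with enough counts to be tested, 1646 passed at an adjusted p under 0.05 (edgeR's quasi-likelihood test with Benjamini-Hochberg adjustment, 12.4% of those tested). R3 was higher for 880 (6.63%) and lower for 766 (5.77%). The increases were the larger changes. Among genes past the test the median log2 fold change was 1.36 for the higher genes and -0.61 for the lower, and 516 of the higher genes changed at least 2-fold against 165 of the lower. At 4-fold or more there were 316 and 17. The count fell to 1060 without R2 replicate 3 and to 1075 without R3 replicate 1.

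**Figure D1:**
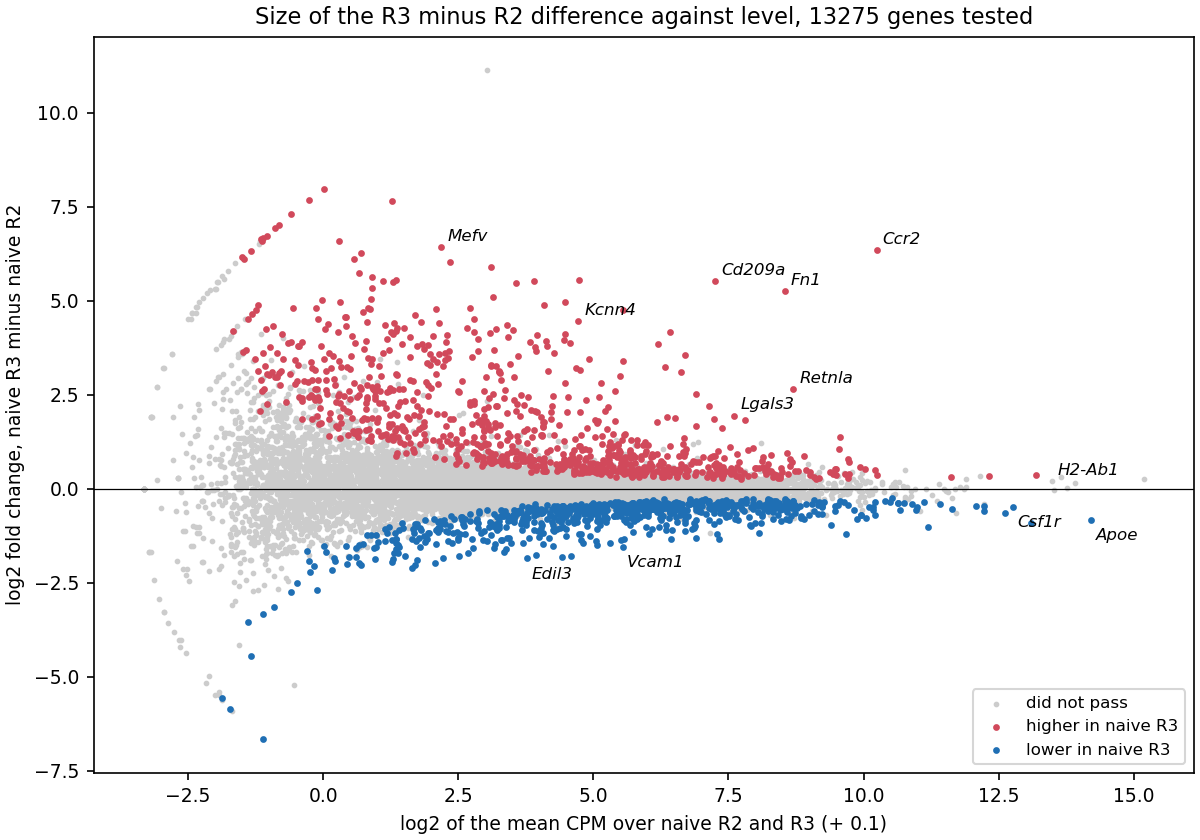
Each point is 1 of 13275 genes, with the log2 of its mean CPM over naive R2 and R3 (plus 0.1) on the horizontal axis and its fitted log2 fold change, R3 minus R2, on the vertical axis. Red marks the 880 genes higher in R3 and blue the 766 lower at an adjusted p under 0.05; the red points reach far from 0 at every level, while most blue points lie between 0 and -2.

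The 15 largest increases among well-expressed genes (a mean of at least 4 on the log2 CPM scale in the higher group, with no overlap between the libraries) were led by Ccr2 itself, at a log2 fold change of 6.34 ± 0.34. Several were receptors. Ltb4r1, the high-affinity receptor for the attractant lipid leukotriene B4, measured 1.67, 0.569 and 0.969 CPM in R2 and 72.0, 49.2 and 34.9 CPM in R3 (5.56 ± 0.57, adjusted p = 4.6e-06). Cd226, an activating receptor of T and NK cells that binds nectin-like ligands, measured 0.136 to 0.398 CPM in R2 and 11.3 to 24.8 CPM in R3 (5.91 ± 0.44, adjusted p = 6.53e-10). Ptgir, the prostacyclin receptor, measured 0.813 to 1.59 CPM in R2 and 15 to 32.1 CPM in R3. Ddr1, a receptor kinase for collagen, stood at 0.994, 0.455 and 0.0881 CPM in R2 against 36.1, 17.9 and 15 CPM in R3. For each of these genes the lowest R3 library lay several-fold above the highest R2 library.

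Surface lectins, peptidases and secreted proteins made up most of the rest. Cd209a, a C-type lectin of the DC-SIGN family found on monocyte-derived dendritic cells (chromosome 8, 3743395 to 3748984 of GRCm38.p6), measured 5.78, 5.97 and 7.71 CPM in R2 and 413, 278 and 205 CPM in R3 (5.52 ± 0.67, adjusted p = 4.76e-05). Fn1, which encodes the matrix protein fibronectin (chromosome 1, 71585473 to 71653280), measured 25.8, 11.2 and 19.3 CPM in R2 and 910, 392 and 873 CPM in R3 (5.26 ± 0.44, adjusted p = 8.54e-07). Both genes were expressed at some level in R2 and rose in every R3 pool. The potassium channel Kcnn4 (chromosome 7, 24369826 to 24385212), which sets the membrane potential during calcium signalling, had the smallest p of all genes tested, with 1.49, 3.13 and 2.34 CPM in R2 and 60.6, 49.7 and 40.8 CPM in R3 (4.47 ± 0.23, adjusted p = 3.27e-11). Dpp4, the cell surface peptidase CD26, went from 0.573 to 1.90 CPM in R2 to 28.8 to 61.0 CPM in R3. Aldh1a2, which makes retinoic acid, went from 0.661 to 1.45 CPM to 18.6 to 56.5 CPM, with R3 replicate 1 the highest. Jaml, an adhesion molecule of leukocytes that cross epithelia, went from 0.485 to 1.63 CPM to 11.2 to 21.3 CPM, the nuclear corepressor Hr from 0.284 to 1.19 CPM to 18.1 to 43.5 CPM, and the ribonuclease Ear2 from 2.42 to 4.04 CPM to 67.4 to 114 CPM. Ear2 has near-identical relatives, so reads could be split among them.

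Another of the 15, Prelp, a proteoglycan of connective tissue, rested on 1 library. It measured 0.753, 49.0 and 0.926 CPM in R3 against 0.226, 0.512 and 0.749 CPM in R2 (5.09 ± 1.25, adjusted p = 0.0105). Without R3 replicate 2 its log2 fold change was 0.74 (adjusted p = 0.668), and with only the compared libraries the adjusted p was 0.282.

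**Figure D2:**
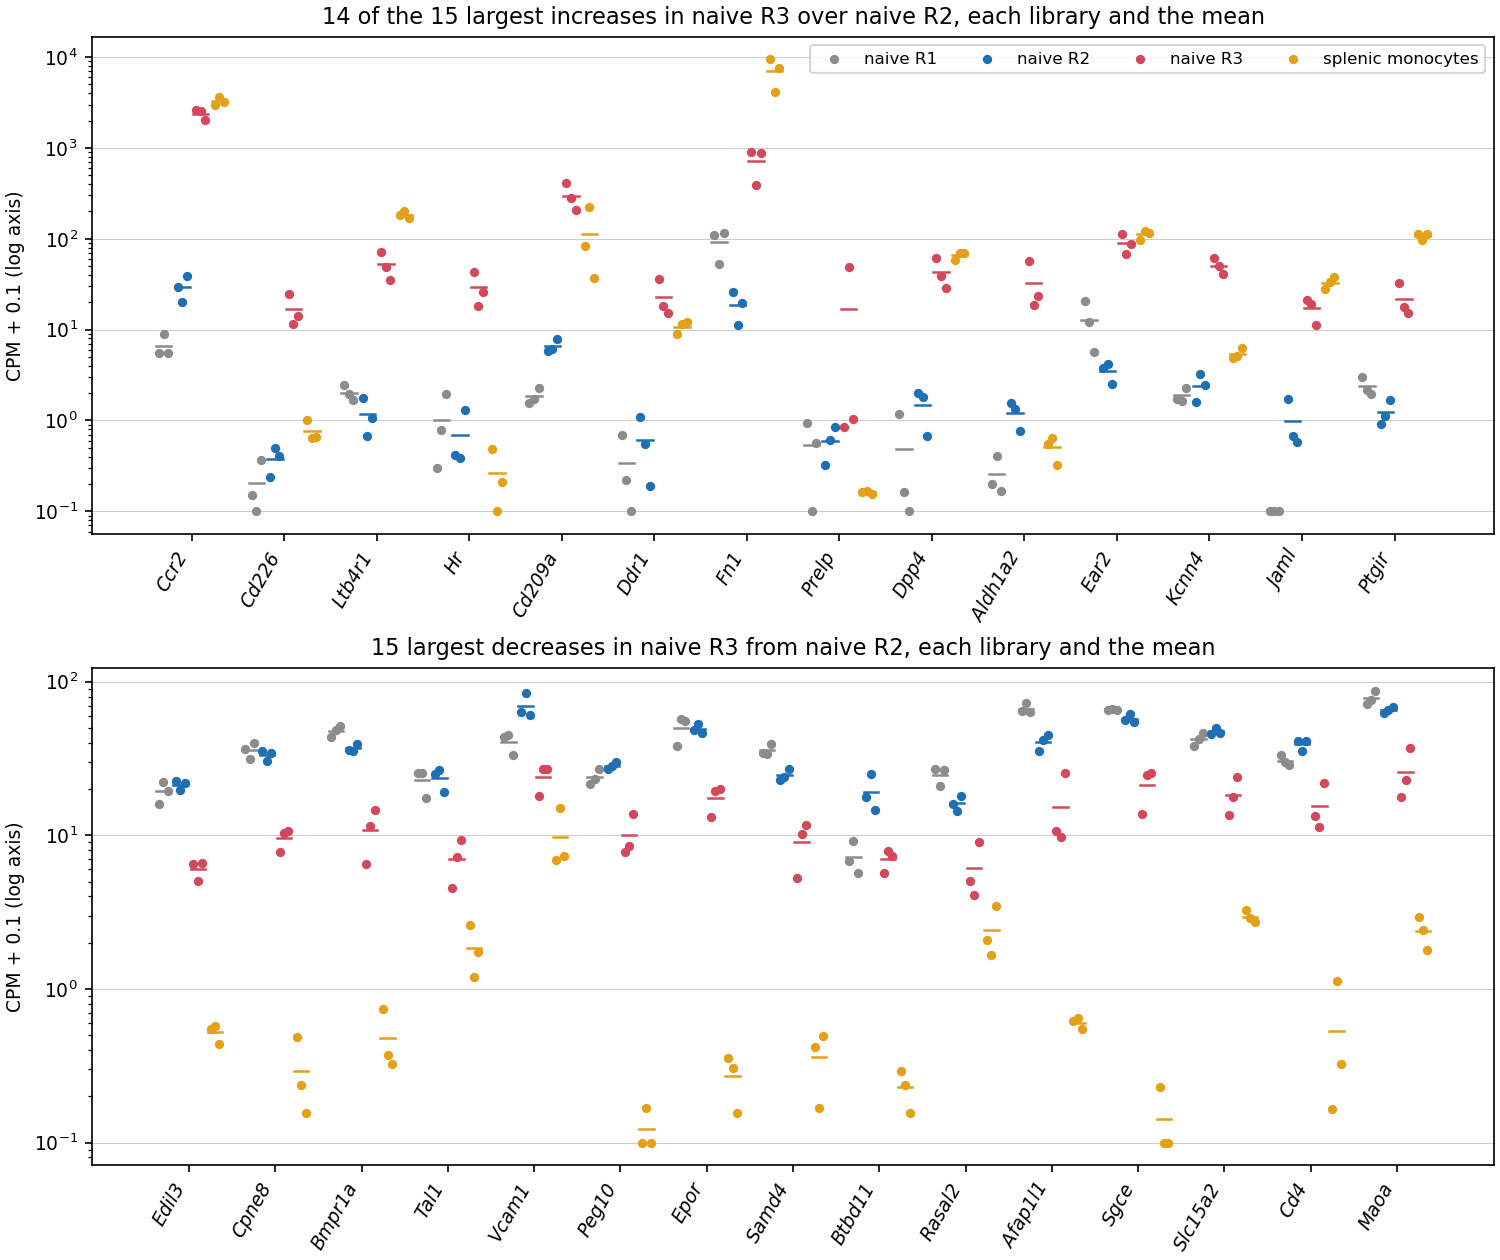
CPM plus 0.1 (log axis) of 14 of the 15 largest increases (top) and 15 largest decreases (bottom) in naive R3, with 3 libraries (dots) and their mean (bar) for naive R1, naive R2, naive R3 and splenic monocytes. In the top panel the red R3 dots stand clear of the blue R2 dots except in Prelp, where only R3 replicate 2 (49.0 CPM) does, and in the bottom panel the R1 and R2 dots lie close together, above R3, for most genes, with the monocytes lowest in most.

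The decreases were smaller and began from genes that R2 expressed at moderate levels. Edil3, a secreted protein that binds integrins (chromosome 13, 88821472 to 89323225), measured 22.5, 19.7 and 21.7 CPM in R2 and 6.37, 4.98 and 6.48 CPM in R3 (-1.85 ± 0.20, adjusted p = 1.01e-06). Cpne8, a calcium-dependent membrane-binding protein, measured 35.3, 30.2 and 34.3 CPM in R2 and 7.64, 10.2 and 10.5 CPM in R3 (-1.82 ± 0.17, adjusted p = 8.01e-08). Receptors of growth and blood-forming signals were among them. Bmpr1a, a receptor for bone morphogenetic proteins, fell from 35.5 to 39.3 CPM in R2 to 6.43 to 14.6 CPM in R3, and Epor, the erythropoietin receptor, from 46.4 to 53.0 CPM to 13.1 to 20 CPM (-1.50 ± 0.17, adjusted p = 1.72e-06). Tal1, a transcription factor of blood stem and erythroid cells, fell from 19.1 to 26.6 CPM to 4.46 to 9.26 CPM (-1.77 ± 0.24, adjusted p = 2.09e-05). Vcam1, the adhesion molecule that binds integrin alpha 4, measured 63.4, 84.3 and 60.9 CPM in R2 and 18, 27.0 and 26.9 CPM in R3. Cd4, a T cell co-receptor that macrophages also carry, fell from 35.3 to 41.2 CPM to 11.3 to 21.8 CPM, and Maoa, which breaks down monoamines, from 62.8 to 68.1 CPM to 17.7 to 36.8 CPM.

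Sgce, a sarcoglycan, and Peg10, a gene derived from a retrotransposon, are imprinted neighbours on chromosome 6 (4674350 to 4747204 and 4747306 to 4760517), and both were among the 15 largest decreases. Sgce measured 56.3, 61.4 and 54.7 CPM in R2 and 13.6, 24.7 and 25.5 CPM in R3, and Peg10 26.8, 28.2 and 29.7 CPM in R2 and 7.70, 8.41 and 13.6 CPM in R3. The other members were Samd4, Btbd11, Rasal2, Afap1l1 and Slc15a2, at log2 fold changes of -1.47, -1.46, -1.45, -1.44 and -1.38. For all 15 genes the highest R3 library lay below the lowest R2 library, which the rule that chose them requires. R3 replicate 3 held more of each than the other R3 libraries, except for Vcam1 and Btbd11, where replicate 2 did.

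Promoter letters were taken from RefSeq (GRCm38.p6), and those of 4 leading genes are shown so that the regions upstream of genes that differ in either direction can be read beside their values. They are the 2 genes with the largest change in each direction with a promoter in the RefSeq table used whose 250 bases before the start held at most 30 bases of an annotated exon or of the gene itself, and they are written 5′ to 3′ on the gene's strand, with letters that match a searched motif in capitals.
Ltb4r1, higher in R3 (chr14:55765712-55765961, plus strand): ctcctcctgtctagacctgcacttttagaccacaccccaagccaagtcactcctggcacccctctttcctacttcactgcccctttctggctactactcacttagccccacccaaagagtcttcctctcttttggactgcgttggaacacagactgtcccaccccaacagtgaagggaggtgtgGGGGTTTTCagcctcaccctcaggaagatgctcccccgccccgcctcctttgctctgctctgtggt
Cd209a, higher in R3 (chr8:3748985-3749234, minus strand): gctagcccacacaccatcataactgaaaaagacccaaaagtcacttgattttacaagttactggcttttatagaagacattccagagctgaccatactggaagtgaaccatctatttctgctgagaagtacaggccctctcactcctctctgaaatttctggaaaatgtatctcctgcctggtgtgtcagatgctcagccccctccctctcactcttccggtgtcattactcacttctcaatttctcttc
Tal1, lower in R3 (chr4:115056176-115056425, plus strand): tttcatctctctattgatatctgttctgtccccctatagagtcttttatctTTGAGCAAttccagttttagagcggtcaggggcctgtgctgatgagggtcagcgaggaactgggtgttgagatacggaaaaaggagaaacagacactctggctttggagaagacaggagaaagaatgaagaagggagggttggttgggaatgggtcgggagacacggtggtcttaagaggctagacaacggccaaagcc
Epor, lower in R3 (chr9:21963577-21963826, minus strand): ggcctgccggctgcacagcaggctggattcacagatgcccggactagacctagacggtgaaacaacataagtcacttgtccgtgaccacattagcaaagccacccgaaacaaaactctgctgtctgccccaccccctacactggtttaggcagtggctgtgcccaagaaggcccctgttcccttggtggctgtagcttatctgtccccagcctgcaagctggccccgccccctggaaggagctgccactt
The capitals in Ltb4r1 are 1 match to the NF-kB letters GGGNNTTTC and those in Tal1 are 1 match to the C/EBP letters TTGCNNAA on the opposite strand.

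Motif letters were counted on both strands in all RefSeq windows of 250 bases before to 50 bases after a start, as a description of these letters only. Windows were found for 10203 of the 13275 genes tested (12978 windows), for 665 of the 880 higher genes (830 windows) and for 594 of the 766 lower genes (803 windows). The AP-1 letters TGANTCA stood in 9.76% of windows of the higher genes, 5.6% of the lower genes and 5.26% of all. The PU.1 letters GAGGAAGT, for the factor that founds the macrophage lineage, stood in 5.66%, 3.86% and 3.44%. The C/EBP letters stood in 10.8%, 11% and 8.62%, the NF-kB letters in 4.34%, 4.11% and 4.31%, and the MAF site core TGCTGAC in 4.22%, 4.73% and 3.73%. The windows had a median GC content of 59.3% in the higher genes, 60% in the lower and 60.3% in all.

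Markers of monocytes were higher in R3. Of 20 classical monocyte markers tested, 12 were higher in R3 and 0 lower, against 6.63% of all genes higher (median log2 fold change 3.18, against 0.01 over all genes tested). The list holds Ccr2, which the sort used; without it 11 of 19 were higher, with a median of 3.12. The list's sum was 12200 to 13300 CPM in R2, 14700 to 17400 CPM in R3 and 12200 to 13600 CPM in naive R1. S100a6, a small calcium-binding protein, measured 14.6, 16.9 and 14.2 CPM in R2 and 128, 163 and 141 CPM in R3 (3.25 ± 0.26, adjusted p = 8.01e-08), and 911 CPM on average in the splenic monocytes. Naive R1 held 54.3 to 60.4 CPM of S100a6, more than R2 though also Ccr2-negative. Ly6c2, which defines classical monocytes, was nearly absent from R2 (0, 0.114 and 0.0441 CPM) and stood at 1.85, 4.64 and 2.32 CPM in R3, against 863 CPM in the monocytes. Every R3 library was thus far below the monocytes in Ly6c2, while Ccr2 averaged 2390 ± 304 CPM (SD, n = 3) in R3 and 3262 CPM in the monocytes. Ly6c2 has a near-identical neighbour and its level is uncertain for that reason. Of 14 nonclassical monocyte markers, 5 were higher than in R2, led by Ear2, against 6.63% of all genes. The list's sum was 1500 to 1650 CPM in R2 and 1710 to 1840 CPM in R3. In naive R1, which is Ccr2-negative, it was 1720 to 1850 CPM, alike to R3. Among the 5, Treml4 measured 2.16 to 4.79 CPM in R2 and 11.4 to 20.6 CPM in R3 (2.41 ± 0.58, adjusted p = 0.0117). Treml4 lost its call without R2 replicate 3 (adjusted p = 0.0591), which also left 1 of the 5 past the test; 2 were left without R3 replicate 2, and 3 without R2 replicate 1, R2 replicate 2 or R3 replicate 1.

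Resident markers were lower in R3. Of 22 resident cardiac macrophage markers, 8 were lower and 0 higher, against 5.77% of all genes lower (median -0.65). Selenop, a selenium carrier, measured 10900, 11200 and 12200 CPM in R2 and 4600, 5860 and 7720 CPM in R3 (-0.92 ± 0.17, adjusted p = 0.000806). Gas6, which bridges dying cells to phagocyte receptors, measured 807, 909 and 980 CPM in R2 and 326, 434 and 613 CPM in R3. Igf1, a growth factor for muscle, measured 290, 282 and 377 CPM in R2 and 122, 131 and 238 CPM in R3, and the orphan receptor Fcrls 1160 to 1320 CPM in R2 and 609 to 882 CPM in R3. In Selenop, Gas6 and Igf1 R3 replicate 3 was the R3 library closest to R2, and without it their log2 fold changes were -1.13, -1.24 and -1.33 (adjusted p = 8.32e-05, 6.81e-05 and 4.74e-06). The calls of Gas6 and Igf1 were lost with only the compared libraries (adjusted p = 0.0595 and 0.125).

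The best-known resident markers did not pass in the main fit, which has no term for the pool. Their R3 libraries were split (Lyve1, Folr2 and Timd4 were chosen after their values were seen). Lyve1, the hyaluronan receptor, measured 345, 314 and 481 CPM in R2 and 140, 161 and 406 CPM in R3 (-0.69 ± 0.30, adjusted p = 0.162). Folr2, a folate receptor, measured 490, 465 and 627 CPM in R2 and 178, 196 and 555 CPM in R3 (adjusted p = 0.128), and Timd4, which binds phosphatidylserine on dying cells, 92.7, 89.2 and 117 CPM in R2 and 40.9, 49.4 and 102 CPM in R3 (adjusted p = 0.116). In all 3 genes replicate 3 was the highest library within R2 and within R3. With the pool number in the fit as a replicate block each passed (adjusted p = 0.0375 for Lyve1, 0.023 for Folr2 and 0.032 for Timd4), and the block gave 12 lower and 1 higher of the 22 markers. Without R3 replicate 3, Lyve1, Folr2 and Timd4 stood at -1.34, -1.50 and -1.15 (adjusted p = 0.000196, 1.01e-05 and 0.000572). Of the 22 markers 15 were then lower, and 4 were without R3 replicate 1 or R3 replicate 2. The summed level of the 22 markers was 30100 to 33400 CPM in R2 and 15500, 16800 and 23700 CPM in R3; what R3 replicate 3 owes to other cells in its gate was not tested.

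Dendritic cell genes were also higher in R3. Of 22 conventional dendritic cell markers tested, 9 were higher and 0 lower (1 lower by DESeq2 and 2 by voom, median 1.34). Over all genes tested 6.63% were higher and 5.77% lower, the shares to set beside both dendritic cell lists of this paragraph. The summed level of the conventional list was 1170 to 1220 CPM in R2 and 1750 to 2240 CPM in R3. Itgax, the integrin CD11c, measured 53.4, 54.4 and 43.2 CPM in R2 and 285, 207 and 207 CPM in R3 (2.21 ± 0.23, adjusted p = 2.24e-06). Bcl11a, a transcription factor of dendritic and lymphoid precursors, measured 0.132 to 0.678 CPM in R2 and 4.83 to 11.4 CPM in R3. Flt3, the growth factor receptor on which dendritic cells depend, measured 3.57, 2.50 and 2.64 CPM in R2 and 46.2, 36.3 and 23.8 CPM in R3 (3.60 ± 0.46, adjusted p = 3.78e-05). Zbtb46, the transcription factor that best separates dendritic cells from macrophages, was named as a defining marker after its values were seen. It measured 4.11, 2.73 and 4.49 CPM in R2 and 7.99, 2.35 and 5.82 CPM in R3 and did not pass (adjusted p = 0.392). Xcr1 and Ccr7, named for the same reason, did not pass either, with means of 0.375 and 0.300 CPM in R2 and 1.04 and 0.790 CPM in R3. Which cells in the R3 gate supply this RNA, dendritic cells, macrophages carrying these genes or others, was not tested. Of 7 plasmacytoid dendritic cell markers tested, 1 was higher and 2 lower, and their sum was 188 to 201 CPM in R2 and 127 to 149 CPM in R3. The lower genes were Siglech, at 16.9 to 27.8 CPM in R2 and 8.69 to 12.5 CPM in R3, and Tcf4; the count of lower genes fell to 0 without R3 replicate 1 and to 1 without R2 replicate 3.

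Markers of other cells were scarce in both populations. For the list counts here and in the paragraphs below, 6.63% of all genes tested were higher in R3 and 5.77% lower. The T cell genes Cd3e, Cd3d and Cd3g averaged under 0.1 CPM in each population, Bcl11b was at 0 in all 6 libraries, and the T cell sum, 39.3 to 47.9 CPM in R2 and 17.6 to 34.7 CPM in R3, was mostly Cd4. Of 6 tested, Il7r was higher (0.569 to 0.949 CPM in R2, 5.09 to 9.07 CPM in R3) and Cd4 lower; the lower count was 2 with the replicate block or without R2 replicate 2 or R3 replicate 3. The NK cell sum was 4.04 to 5.38 CPM in R2 and 9.86 to 22.8 CPM in R3, in R3 mostly Klrd1 (0.949 to 1.19 CPM in R2, 20.2, 14.3 and 5.43 CPM in R3), the 1 gene past the test of 6, with Gzmb at 0. B cell markers (0 of 6 past edgeR's test, DESeq2 or voom, and 0 at an unadjusted p under 0.05) summed to 40.8 to 51.7 CPM in R2 and 34.7 to 49.7 CPM in R3. Neutrophil markers summed to 172 to 328 CPM in R2 and 118 to 453 CPM in R3, with Camp, Ngp, Ly6g and Mpo at 0 and 1 of 10 past the test, Mmp8, whose call was lost without R2 replicate 1, R2 replicate 2 or R3 replicate 1. Mast cell, basophil and eosinophil markers summed to 2.45 to 3.17 CPM and 4.64 to 6.37 CPM, with Mcpt8, Fcer1a and Prg2 at 0 and 1 of 6 past the test, Siglecf, whose call was lost without R2 replicate 1, R2 replicate 2 or R3 replicate 1. None of 20 cardiomyocyte genes passed by edgeR in R3 against R2 (0 also by DESeq2 and voom, and 0 at an unadjusted p under 0.05), though with only the compared libraries 1, Nppa, passed (0.99 on the log2 scale, adjusted p = 0.32, and 0.0302 with only those libraries). The list's sum was 357 to 425 CPM in R2 and 368 to 435 CPM in R3. Endothelial markers summed to 21.7 to 28.4 CPM and 27.1 to 44.1 CPM, and 1 of 12 passed, Flt1, whose call was lost without R2 replicate 2, R2 replicate 3, R3 replicate 1 or R3 replicate 2, while 3 passed without R3 replicate 3.

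Fibroblast and mural cell genes were high in 1 R3 library. Of 15 tested, 4 were higher in R3, Col3a1, Col1a1, Dcn and Col1a2. Col1a1, a chain of type I collagen, measured 1.39, 55.1 and 3.51 CPM in R3 against 0.705 to 1.54 CPM in R2, and the proteoglycan Dcn 5.10, 84.2 and 6.35 CPM against 2.79 to 4.16 CPM. The list summed to 37.6 to 54.2 CPM in R2 and to 74.5, 354 and 46.9 CPM in R3. Without R3 replicate 2, 0 of the 15 passed (Col1a1 at a log2 fold change of 0.96, adjusted p = 0.291, against 4.05 with it). The same library set the value of Prelp.

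**Figure D3:**
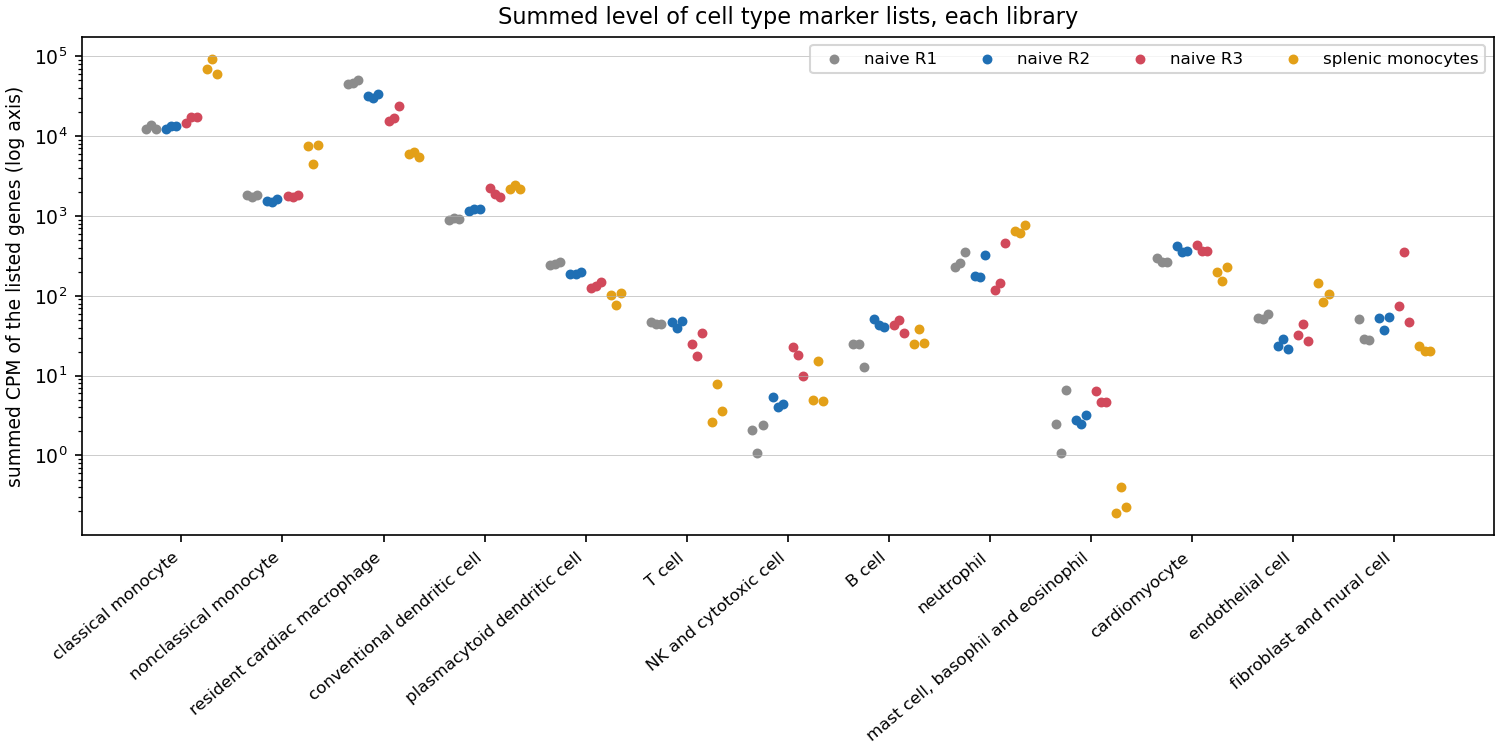
Summed CPM (log axis) of the genes of 13 cell type marker lists in each library of naive R1, naive R2, naive R3 and splenic monocytes, 3 dots a group. R3 lies below R2 in the resident macrophage list and above it in the conventional dendritic cell list, 1 R3 dot (354 CPM, replicate 2) stands apart in the fibroblast list, and the monocytes lie far above R3 in the classical monocyte list.

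Antigen presentation genes differed in their accessory members. Of 13 MHC class II genes tested, 5 were higher in R3 and 0 lower. The lysosomal reductase Ifi30, which opens disulphide bonds of antigens, measured 239, 234 and 227 CPM in R2 and 397, 384 and 318 CPM in R3 (0.65 ± 0.10, adjusted p = 0.000111). H2-DMb2, a chain of the peptide-loading molecule, measured 6.71 to 8.28 CPM in R2 and 19 to 42.2 CPM in R3, and H2-Oa, a chain of its inhibitor, 2.71 to 5.80 CPM in R2 and 12.1 to 23.9 CPM in R3. The other 2 were H2-Ob, whose call was lost when any 1 library other than R3 replicate 3 was left out, and Ciita, the master regulator of the class. H2-DMb2 has a close copy in H2-DMb1. The list count was 3 without R2 replicate 1, R2 replicate 3, R3 replicate 1 or R3 replicate 2. Of 18 costimulation and checkpoint ligands, 4 were higher and 2 lower. Cd86, the main costimulatory ligand, was lower in R3 at 225, 225 and 247 CPM against 403, 429 and 395 CPM (-0.81 ± 0.11, adjusted p = 2.18e-05), while Tnfsf14 (LIGHT) was higher at 6.88 to 7.95 CPM against 2.05 to 2.67 CPM, as was the adhesion receptor Slamf7 at 142 to 182 CPM against 80.2 to 103 CPM. The lower count was 1 without R2 replicate 1, R2 replicate 2, R3 replicate 1 or R3 replicate 3.

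Of 20 chemokine ligands, 2 were higher and 1 lower, beside 6.63% and 5.77% of all genes. Of 21 attractant receptors, 2 were higher and 7 lower. One of the higher receptors was Ccr2 itself, which the sort used, and without it 1 of 20 was higher, Ltb4r1. S1pr1, the sphingosine-1-phosphate receptor that governs exit from tissue, measured 106, 112 and 107 CPM in R2 and 42.7, 52.0 and 70.9 CPM in R3. Among ligands, Ccl17 (chromosome 8, 94809380 to 94812038) and its neighbour Ccl22 (94745684 to 94751388), both ligands of Ccr4, were higher in R3. Ccl17 measured 1.40, 1.02 and 0.264 CPM in R2 and 5.39, 6.52 and 7.15 CPM in R3 (2.83 ± 0.38, adjusted p = 7.71e-06), and Ccl22, counted with the dendritic cell list, 0.837 to 1.26 CPM and 5.62 to 7.78 CPM. Cxcl12 measured 4.32 to 8.06 CPM in R2 and 15.2 to 24.5 CPM in R3. Ccl12, a ligand of Ccr2, was lower in the cells that carry its receptor, at 45.2, 48.3 and 35.9 CPM in R2 and 20, 18.6 and 15.4 CPM in R3 (-1.25 ± 0.19, adjusted p = 5.58e-05). The replicate block gave 4 lower ligands, as did leaving out R3 replicate 3.

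Sensors of microbes were lower and the IL-1 and interferon genes mostly did not pass. Of 24 pattern recognition receptors and adaptors, 8 were lower in R3 and 1 higher. Clec4n (Dectin-2), the lectin that binds fungal mannans, measured 153, 131 and 140 CPM in R2 and 58.9, 61.3 and 75 CPM in R3 (-1.12 ± 0.15, adjusted p = 1.64e-05), and Tlr7, the sensor of single-stranded RNA, 539, 513 and 460 CPM in R2 and 312, 281 and 328 CPM in R3. Clec4e (Mincle), another fungal lectin, was the exception at 0.573 to 1.36 CPM in R2 and 2.91 to 4.52 CPM in R3. Leaving out R2 replicate 2 left 3 of the 8, R2 replicate 1 or R3 replicate 1 left 4, and R3 replicate 2 or R3 replicate 3 left 5. Of 18 inflammasome and interleukin-1 genes, 2 were higher, beside 6.63% of all genes. Mefv, which encodes pyrin, measured 0.0569 to 0.132 CPM in R2 and 5.29 to 11.7 CPM in R3 (6.42 ± 0.59, adjusted p = 2.53e-08), and Il1rn, the decoy ligand of the IL-1 receptor, 6.43 to 8.72 CPM and 13.7 to 16.9 CPM (1.01 ± 0.20, adjusted p = 0.00111). Il1b measured 164, 80.1 and 131 CPM in R2 and 130, 76.2 and 114 CPM in R3 and did not pass (adjusted p = 0.794), nor did Nlrp3 (adjusted p = 0.817); both were named after their values were seen.

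Of 21 NF-kB genes, 3 were higher in R3, of which Tnip3, an inhibitor induced by the pathway, measured 2.91 to 3.13 CPM in R2 and 32.6 to 54.4 CPM in R3 (3.87 ± 0.26, adjusted p = 1.12e-09). The other 2, Traf1 and Ikbke, lost their calls without R2 replicate 1 (adjusted p = 0.051 and 0.0783), and DESeq2 gave 5 for the list. None of 24 type I interferon-stimulated genes passed by edgeR (0, also by DESeq2, 1 by voom, and 2 at an unadjusted p under 0.05). The replicate block gave 4 higher, and leaving out R2 replicate 1 gave 2. Isg15, for example, measured 27.2, 12.8 and 11.9 CPM in R2 and 39.4, 20 and 17 CPM in R3, high in replicate 1 of both populations (adjusted p = 0.377, and 0.0318 with the block). Oas3, at 42.6, 18.2 and 13.9 CPM in R2 and 101, 41.0 and 40.3 CPM in R3, behaved alike (adjusted p = 0.0924, and 0.000255 with the block). Of 21 interferon-gamma-induced genes, 1 was lower, the GTPase Iigp1, at 30.4 to 36.8 CPM in R2 and 17.2 to 19.2 CPM in R3 (-0.90 ± 0.18, adjusted p = 0.00136), while the block, or leaving out R3 replicate 3, gave 2 higher.

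Genes of clearance and degradation were lower in R3. Of 22 lysosomal hydrolases and cathepsins, 9 were lower and 0 higher. The cathepsin Ctsf measured 160, 159 and 152 CPM in R2 and 73.3, 76.2 and 88.5 CPM in R3 (-0.98 ± 0.10, adjusted p = 5.98e-07), and the membrane protein Lamp2 1310 to 1410 CPM and 928 to 997 CPM. The count was 5 without R2 replicate 1 or R3 replicate 1. Of 21 iron and heme genes, 7 were lower and 0 higher. The copper oxidase ceruloplasmin, Cp, which loads iron onto transferrin, measured 175, 153 and 183 CPM in R2 and 49.0, 52.2 and 106 CPM in R3 (-1.30 ± 0.20, adjusted p = 8.17e-05), and Spic, the transcription factor of red-pulp iron-recycling macrophages, 12.7 to 13.5 CPM and 2.78 to 6.42 CPM. The iron exporter Slc40a1 (ferroportin) measured 238, 197 and 249 CPM in R2 and 63.6, 56.4 and 152 CPM in R3 (-1.33 ± 0.30, adjusted p = 0.00696). In both Cp and Slc40a1 R3 replicate 3 was the R3 library closest to R2, and without it they stood at -1.75 and -1.93 (adjusted p = 1.69e-08 and 1.53e-05). The calls of Slc40a1 and Cp were lost with only the compared libraries (adjusted p = 0.133 and 0.0648), and the list count was 4 without R3 replicate 1 or R3 replicate 2. Of 17 receptors and bridges for dying cells, 4 were lower and 1 higher, with Mertk, the receptor that binds Gas6, at 108, 117 and 108 CPM in R2 and 77.6, 65.9 and 86.8 CPM in R3 (-0.54 ± 0.13, adjusted p = 0.00654). With the replicate block 7 were lower and 2 higher. Without R3 replicate 1 or R3 replicate 2, 2 were lower and 0 higher, the latter ending the call of Mertk (adjusted p = 0.0533). Complement was mixed, with 3 of 17 higher and 4 lower. Component C2 measured 28.0 to 30.8 CPM in R2 and 13.1 to 16.1 CPM in R3, and properdin, Cfp, was higher at 328 to 471 CPM against 170 to 252 CPM. The higher count was 5 with the block and 1 without R2 replicate 1 or R2 replicate 2, and the lower count was 2 without R2 replicate 3, R3 replicate 1 or R3 replicate 2.

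Adhesion and matrix genes changed in both directions. Of 23 leukocyte integrins and adhesion molecules, 8 were higher in R3 and 3 lower. Itgb7, the beta 7 integrin chain, measured 10.2, 9.16 and 7.62 CPM in R2 and 219, 159 and 106 CPM in R3 (4.17 ± 0.44, adjusted p = 6.52e-06), and Selplg, the ligand through which leukocytes roll on selectins, 130 to 139 CPM and 184 to 227 CPM. The higher count was 4 without R3 replicate 1. Of 22 matrix proteases and inhibitors, 6 were higher and 2 lower. The sheddase Adam8 measured 3.16, 2.50 and 1.63 CPM in R2 and 53.2, 38.9 and 34.3 CPM in R3 (4.12 ± 0.24, adjusted p = 1.86e-10). The elastase Mmp12 rose from 48.4, 65.3 and 57.2 CPM to 203, 159 and 184 CPM, and the collagenase Mmp13 fell from 392, 365 and 352 CPM to 165, 162 and 168 CPM. Of 20 growth factors of repair, 4 were lower and 0 higher (1 higher with the replicate block or without R3 replicate 2); Nrp1, a co-receptor for VEGF, measured 676 to 736 CPM in R2 and 398 to 527 CPM in R3, and Bmp2 23.8 to 29.7 CPM and 9.10 to 18.3 CPM.

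Metabolic genes were higher in R3. Of 19 glycolysis genes, 11 were higher and 0 lower (median 0.45), by small amounts. Pfkp, the platelet form of phosphofructokinase, measured 43.6, 43.2 and 40.1 CPM in R2 and 91.7, 81.1 and 79.3 CPM in R3 (0.99 ± 0.13, adjusted p = 9.43e-06), and Pkm, pyruvate kinase, 303, 285 and 279 CPM and 432, 420 and 426 CPM. Gapdh and Pgk1, named after their values were seen, measured 1.30 and 2.63 CPM on average in R2, low for such genes; both have many near-identical copies in the genome, and their values are uncertain. Of 21 sterol and fatty acid synthesis genes, 7 were higher and 0 lower. The desaturase Scd2 measured 13.2 to 16.8 CPM in R2 and 45.1 to 57.8 CPM in R3. That count was 4 without any 1 of the R2 libraries or without R3 replicate 1, and 4 with no filter on low counts.

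Lipid-associated macrophage genes divided, with 5 of 20 higher and 7 lower. Lgals3 (galectin-3) measured 77.7, 88.3 and 75.4 CPM in R2 and 288, 333 and 307 CPM in R3 (1.94 ± 0.15, adjusted p = 6.96e-09), and Spp1 (osteopontin) 10.8, 9.16 and 11.2 CPM and 22.9, 41.1 and 66.2 CPM. Cd63, a tetraspanin of late endosomes, was lower at 55.3 to 98.3 CPM against 148 to 161 CPM, and so was the scavenger receptor Msr1. Of 17 S100 and annexin genes, 7 were higher and 0 lower; Anxa1 measured 37.8, 39.5 and 40.5 CPM in R2 and 160, 138 and 133 CPM in R3 (1.87 ± 0.12, adjusted p = 7.73e-10), and Anxa2 96.1 to 101 CPM and 298 to 374 CPM. Of 16 alternative activation genes, 4 were higher and 0 lower (2 lower with the replicate block or without R3 replicate 3, and 4 by voom). Retnla, a secreted protein induced by IL-4, measured 81.8, 84.3 and 177 CPM in R2 and 768, 524 and 855 CPM in R3 (2.64 ± 0.35, adjusted p = 5.86e-05). Eicosanoid genes gave 4 higher and 1 lower of 20 (0 lower without R3 replicate 1, 2 without R3 replicate 3 and 4 by voom); besides Ptgir, the prostaglandin E2 receptor Ptger2 measured 0.739 to 1.67 CPM in R2 and 4.81 to 7.48 CPM in R3.

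Transcription factors of myeloid cells gave 6 higher and 7 lower of 38. Besides Tal1 and Spic, which were lower, Bhlhe40, a repressor of IL-10, measured 2.26, 2.27 and 1.37 CPM in R2 and 24.4, 25.5 and 16.9 CPM in R3 (3.52 ± 0.51, adjusted p = 0.000115), and Runx2 0.284 to 1.04 CPM and 3.71 to 7.06 CPM. The lower count was 4 without R2 replicate 2 or R3 replicate 2 and 3 without R3 replicate 1. In the colony-stimulating factor axis (2 of 8 higher, 1 lower), Csf1r was lower, Flt3 higher, and Csf2ra, which binds GM-CSF, measured 236 to 254 CPM in R2 and 339 to 356 CPM in R3; its call was lost without R2 replicate 1, R2 replicate 3 or R3 replicate 1. Of 8 genes tested in the Fc receptor list, 2 were lower, Fcgrt and the orphan receptor Fcrls, which was also counted with the resident markers. Fcgrt lost its call without R2 replicate 1, 2 or 3 or R3 replicate 1 or 2. Cell cycle genes gave 3 higher of 24, beside 6.63% of all genes. That count was 9 without R3 replicate 2, 7 with the replicate block, and 1 without R2 replicate 2, R2 replicate 3 or R3 replicate 1. Immediate early and heat shock genes, which also respond to cell handling, gave 4 higher of 18 (8 with the block). They summed to 2180 to 2850 CPM in R2 and 3040 to 4630 CPM in R3, and their part in other results was not tested.

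**Figure D4:**
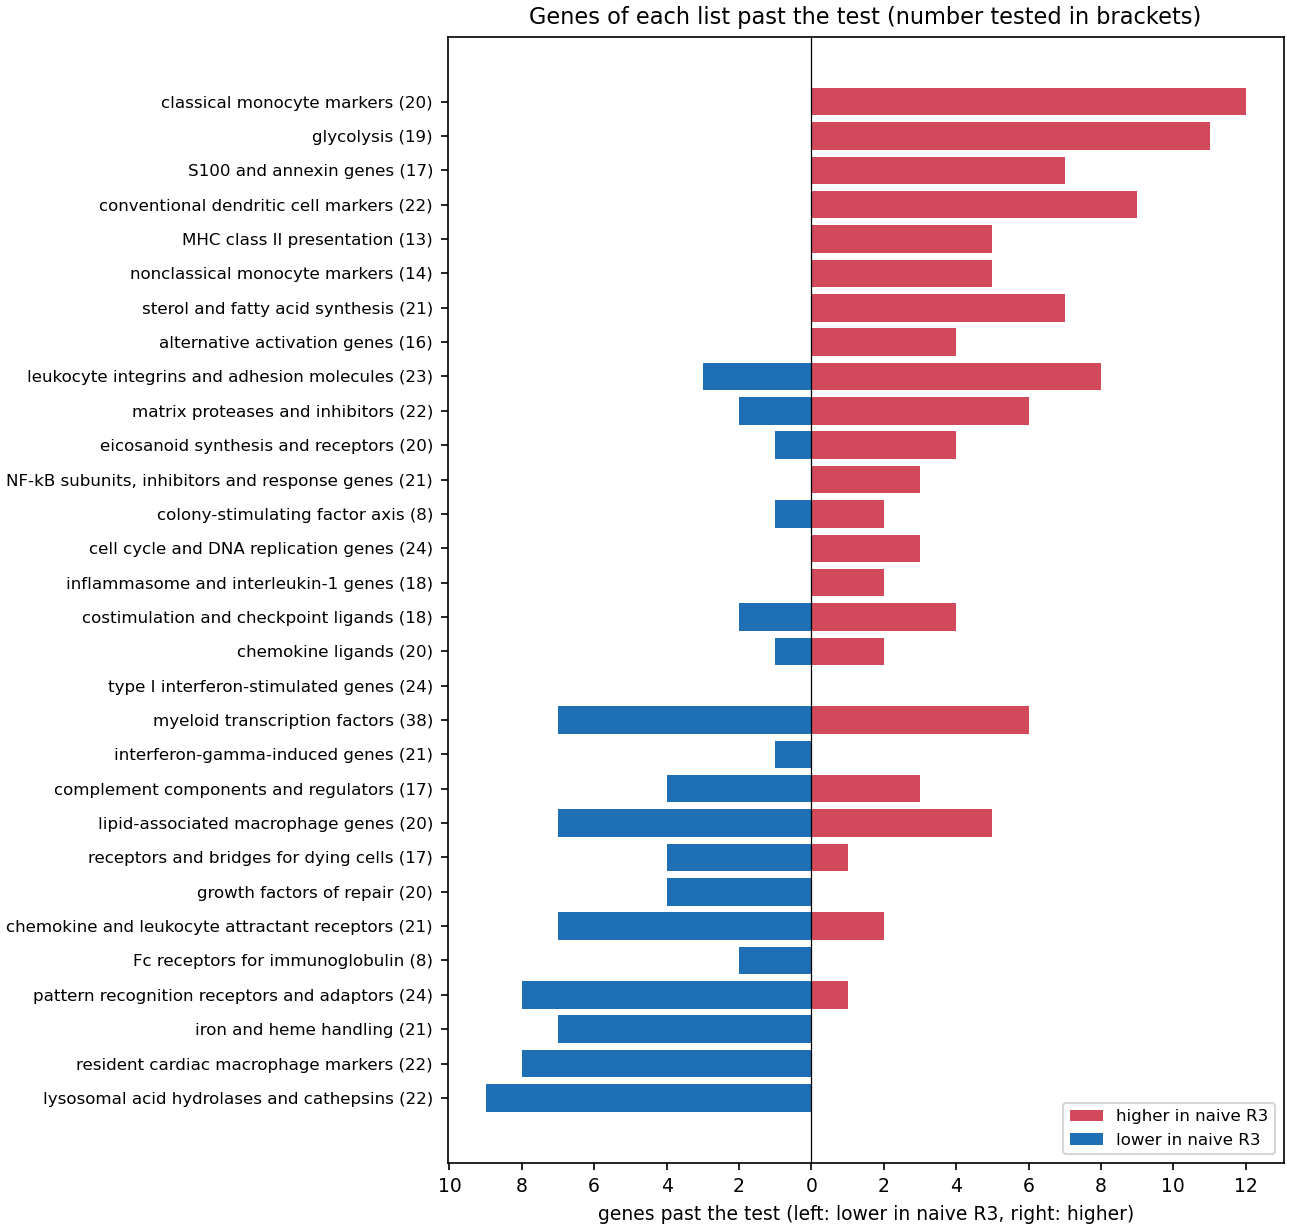
Number of genes of each list past the test, R3 against R2, with higher genes to the right in red, lower genes to the left in blue and the number tested in brackets. The monocyte, glycolysis and dendritic cell lists extend only to the right, and the lysosome, resident macrophage and iron lists only to the left.

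Each difference was set beside that between splenic monocytes and naive R1, a comparison that shares no library with it, though R1 came from the same pools. Monocytes and R1 differ in tissue (spleen against heart) as well as in cell type, and the comparison cannot tell these apart. Immediate early and heat shock genes, which respond to handling, summed to 11900 to 18300 CPM in the monocytes and 2050 to 3100 CPM in R1. There, 30.8% of genes tested were higher in the monocytes and 32.5% lower. Of the 880 genes higher in R3, 596 (67.7%, or 14.6% of the monocyte genes) were also higher in monocytes and 92 (10.5%) were lower. Of the 766 lower in R3, 688 (89.8%, or 15.9%) were also lower in monocytes and 8 were higher. The shared total of 1284 was 814 without R3 replicate 1. Placements by mean level were not counted over all genes tested, so those that follow have no background share. By mean level, the 766 lower genes placed R1 above both R2 and R3 in 433, between them in 295 and below both in 38, and the monocytes below both in 659. The 880 higher genes placed the monocytes above both in 511, between in 161 and below both in 208. Among the last were Hr and Aldh1a2, which measured 0 to 0.386 CPM and 0.407 CPM on average in the monocytes, and Retnla (0.468 CPM), Mmp12 (0.980 CPM) and Ccl17 (0.143 CPM). Kcnn4, at 5.32 CPM on average there, lay between R2 and R3.

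The same populations were compared in CAWS-treated mice, which share no library with the naive ones. In CAWS mice R3 was higher than R2 for 732 genes (5.51%) and lower for 1295 (9.76%), 2027 in all, a total that was 1236 without CAWS R3 replicate 1, 1283 without CAWS R3 replicate 2 and 1311 without CAWS R2 replicate 3. Of the 880 genes higher in naive R3, 339 (38.5%, or 46.3% of the CAWS genes) were also higher in CAWS R3 and 8 were lower. Of the 766 lower in naive R3, 537 (70.1%, or 41.5%) were also lower in CAWS R3 and 0 were higher. The shared total of 876 was 577 without naive R3 replicate 1. Some of the lower genes reached a larger difference in CAWS mice: Cpne8 stood at -3.61 there against -1.82 in naive mice, Sgce at -3.52 against -1.44 and Epor at -2.91 against -1.50. Others did not, such as Tal1 at -1.83 against -1.77. By the test of the next paragraph, 73 of the 766 differed in this direction and 2 in the other. Over all genes tested the shares were 2.23% and 0.0979%.

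Whether the R3 to R2 difference itself differed between naive and CAWS mice was tested gene by gene. It was larger (more positive) in naive mice for 296 genes (2.23%) and smaller for 13 (0.0979%), 309 in all, a total that was 188 without CAWS R3 replicate 2 and 199 without CAWS R2 replicate 2. Of the 296, 194 had a higher mean in CAWS R2 than in naive R2 and 77 a higher mean in CAWS R3 than in naive R3. The test that chose the 296 favours higher means in CAWS R2 and lower means in CAWS R3. Neither count is therefore a separate finding. Several of the genes that separated the naive populations most overlapped between R2 and R3 in CAWS mice, where R2 held them too. Cd209a measured 145, 206 and 69.9 CPM in CAWS R2 and 279, 164 and 140 CPM in CAWS R3 (0.47 ± 0.52, adjusted p = 0.624), so that the differences differed by 5.05 ± 0.84 (adjusted p = 0.00288). Ddr1 measured 23.8, 36.3 and 11.4 CPM in CAWS R2 and 32.0, 20 and 15 CPM in CAWS R3 (5.58 ± 0.79, adjusted p = 0.00032 for the difference of differences). Jaml measured 9.28 to 24.9 CPM in CAWS R2 and 12.9 to 19.1 CPM in CAWS R3, Flt3 17.4 to 49.7 CPM and 21.8 to 43.4 CPM, and Bhlhe40 23.6 to 39.8 CPM and 20.5 to 30 CPM. CAWS R2 replicate 3 held the least Cd209a, Ddr1, Jaml and Flt3 of its group. Ccr2, by contrast, still separated the gates, at 206 to 267 CPM in CAWS R2 and 3470 to 4060 CPM in CAWS R3, though CAWS R2 held more of it than naive R2.

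Ccl22 reversed. It measured 23.4, 19.7 and 18.2 CPM in CAWS R2 and 5.70, 5.09 and 5.27 CPM in CAWS R3 (-1.93 ± 0.20, adjusted p = 1.54e-07), against 2.67 ± 0.29 in naive mice, a difference of 4.60 ± 0.35 (adjusted p = 1.22e-08). Its neighbour Ccl17 also reversed (-1.64, adjusted p = 0.00503, in CAWS mice; difference 4.47 ± 0.56, adjusted p = 2.61e-05). Among the 13 genes of the opposite sign, Tmem38b, a cation channel of the endoplasmic reticulum, measured 6.82 to 11.1 CPM in naive R2 and 7.44 to 9.93 CPM in naive R3 but 7.90 to 11.1 CPM in CAWS R2 and 21 to 24.7 CPM in CAWS R3. Ms4a4a was lower in naive R3 (96.7, 91.3 and 88.8 CPM in R2, 40.1, 38.5 and 52.2 CPM in R3, adjusted p = 2.3e-05) and overlapped in CAWS mice (75 to 123 CPM and 106 to 123 CPM). Ms4a4a belongs to a cluster of similar genes, and its reads may be split. In the conventional dendritic cell list the difference of differences passed for 11 of 22 genes, and in the resident list for 5 of 22. Over all genes tested, 2.23% passed with a positive value and 0.0979% with a negative one. Of the 22 resident markers 17 were lower in CAWS R3 than in CAWS R2, against 9.76% of all genes.

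**Figure D5:**
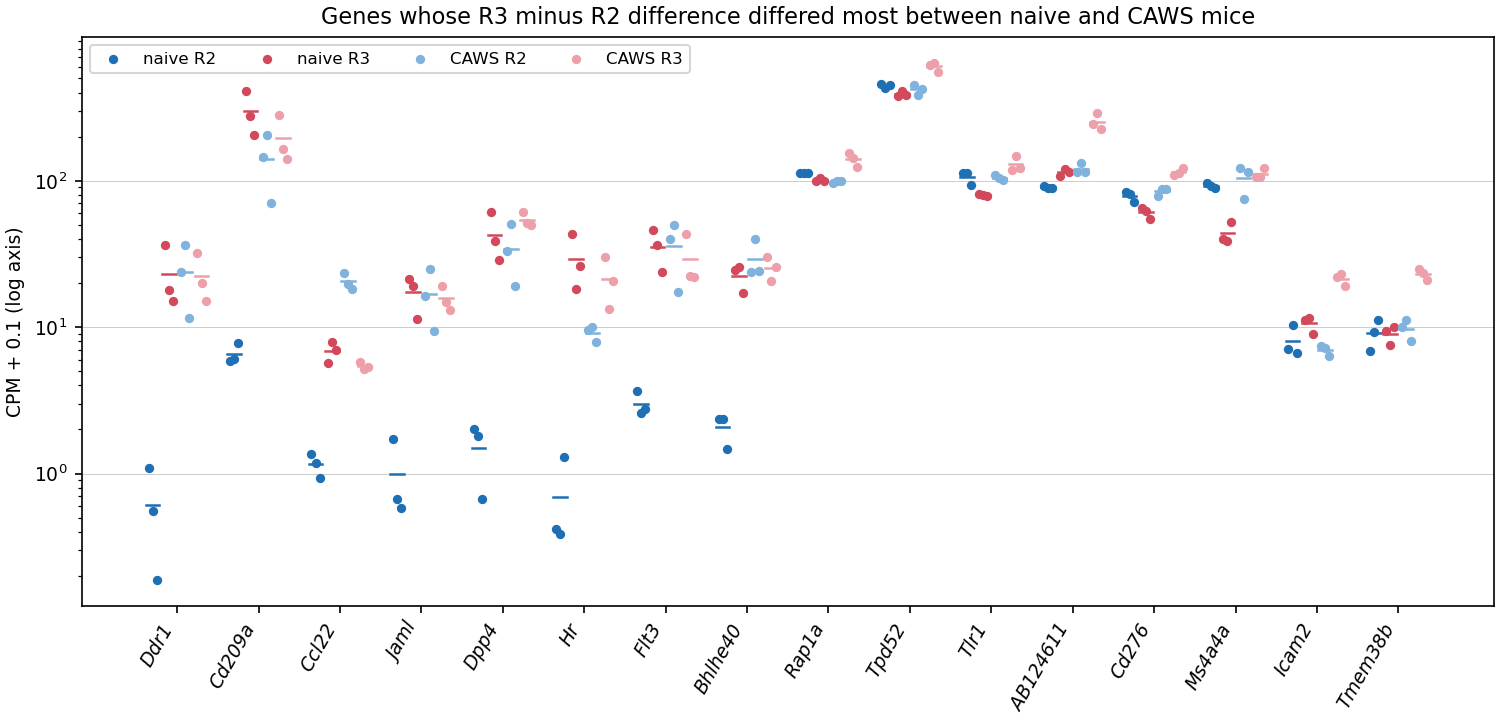
CPM plus 0.1 (log axis) in naive R2, naive R3, CAWS R2 and CAWS R3, 3 libraries (dots) and their mean (bar), of the 8 genes with the most positive and the 8 with the most negative difference between the naive and the CAWS R3 to R2 difference. For the genes on the left naive R2 stands alone below the other groups, in Ccl22 CAWS R2 stands above all, and for those on the right CAWS R3 is mostly the highest.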

How the data were processed

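RNA was taken from freshly sorted cells with the RNeasy Plus Mini kit and made into TruSeq libraries, per the labels' protocols. The authors deposited unnormalised counts per gene, made with featureCounts on mm10 per the submitters' processing notes. For the aligner, annotation release and strand setting, what was used is not given in the sources used here, so genes that overlap on opposite strands, and near-identical family members, are uncertain. Each sample's own table held the same values as the combined table for all 21 libraries. Symbols and positions came from RefSeq (GRCm38.p6), which matched 25275 of 27179 gene IDs; 278 of the genes tested had no symbol.

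All 21 libraries (12800136 to 23006155 counts) were fitted together with 1 mean per group (14 residual degrees of freedom), with TMM scaling, genes kept by a minimum count of 10 and total of 15, and edgeR 4.0.16's robust quasi-likelihood test with Benjamini-Hochberg adjustment over 13275 genes at 0.05. Errors of log2 fold changes are standard errors, and levels are CPM. The procedure was tested on simulated data. DESeq2 1.42.0, limma 3.58.1 (voom with sample weights), RLE scaling, other filters, other sets of libraries and leaving out each library were the alternatives. R 4.3.3, Python 3.11.15, numpy 2.4.6, pandas 2.3.3 and matplotlib 3.10.9 were used. The comparison and the gene lists were chosen with earlier results of these data known.

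Genes named are Ccr2, H2-Ab1, Adgre1 and Csf1r; the 15 largest changes in each direction past the test without overlap among genes whose higher group averaged 4 or more in log2 CPM; up to 4 genes of smallest p in each list; and the 8 largest differences of differences in each direction. A few named by this rule, among them 1 of the 15 largest increases, are not reported here. Any other gene is said to be chosen after its values were seen. Promoters on chromosome 18 were left out, and those shown were also required to hold at most 30 bases of annotated exon or gene body, a limit added after the data were seen; Ccr2, Cpne8 and Bmpr1a were passed over for it.

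The replicate number is a pool of mice, since the design says each pool was divided into the populations. The main fit has no term for the pool, and the replicate block is an alternative that adds it. Deviations from the group mean correlated at 0.0794 to 0.133 between naive libraries of the same number and at -0.0773 to -0.0121 between those of other numbers; for CAWS the values were 0.0274 to 0.253 and -0.242 to 0.0354.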

Additional observations from a re-analysis of the deposited data

Results flagged for a closer look

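The 28 genes listed below come from the largest changes and the largest differences of differences, and some were not named above. In each, the R3 to R2 difference itself differed between naive and CAWS mice by the fit's interaction term (edgeR, adjusted p under 0.05). The list is not complete. Other genes named above also passed, among them Itgax (adjusted p = 6.66e-05), Ccl17 (2.61e-05), Bcl11a (0.00199) and Siglech (0.00806). The values below are the naive log2 fold change minus the CAWS log2 fold change, and no reason for any of them was tested.

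Among genes higher in naive R3, the value was 2.35 for Ccr2, 3.51 for Cd226, 3.25 for Ltb4r1, 4.31 for Hr, 5.05 for Cd209a and 5.58 for Ddr1. Ccr2 chose the cells in naive and CAWS mice alike, so its value is not a finding. It was 3.44 for Fn1, 4.32 for Dpp4, 2.57 for Kcnn4, 4.36 for Jaml and 2.33 for Ptgir. Ccl22, Flt3 and Bhlhe40 had values of 4.60, 3.90 and 3.73. A positive value here means that naive R3 and R2 stood further apart.

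Among genes lower in naive R3, the value was 1.79 for Cpne8, 1.19 for Bmpr1a, 1.41 for Epor, 2.08 for Sgce, 1.21 for Slc15a2 and 1.36 for Maoa. For these a positive value means that the decrease in R3 was larger in CAWS mice.

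The value was negative for Tmem38b (-1.27), Icam2 (-1.19), Ms4a4a (-1.19), Cd276 (-0.82), AB124611 (-0.73), Tlr1 (-0.72), Tpd52 (-0.71) and Rap1a (-0.67).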

How the results depend on the processing

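The 1646 genes past the test in naive R3 against R2 became 2918 with the replicate block fitted on only the groups compared and 1813 with the replicate block within each treatment, and ranged from 1060 to 1620 when 1 library was left out. The 2027 of CAWS R3 against R2 became 3972 with voom and 4640 with that replicate block on only the groups compared, and ranged from 1236 to 1912. The 309 differences of differences became 626 with voom and 1146 with the same block, and ranged from 188 to 314. The overlap of naive and CAWS calls, 876, became 1906 with that block and ranged from 577 to 870, and the overlap with the monocyte calls, 1284, ranged from 814 to 1272. The 8401 monocyte calls ranged from 7949 to 8179 when 1 library was left out, and from 6714 (only the groups compared) to 8620 (DESeq2) under the other alternatives. The cause of these moves was not tested, beyond the smaller number of libraries when 1 is left out.

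Of the 182 genes named or listed by the rule, none that passed in the main fit or in an alternative had opposite directions in them. Changes of direction in genes that passed in neither were not counted, and some alternatives did not test all 182. DESeq2 moved 4 genes past the threshold and 0 below it, RLE scaling 2 and 0, voom 11 and 5, only the groups compared 11 and 13, the replicate block within each treatment 8 and 0, and the replicate block with only the groups compared 21 and 4. Leaving out 1 library took between 3 and 19 of them below it. With 3 libraries a group, counts near the test's threshold are limited by the number of pools.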
